A study of Drosophila melanogaster with 34 samples.

Results

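The Iroquois complex of Drosophila melanogaster is a cluster of 3 related genes, araucan (ara), caupolican (caup) and mirror (mirr), on the left arm of chromosome 3. The regions described here are all peaks that overlap 3L:12570000-12740000 on release 5 of the BDGP genome, an interval of 170001 bp chosen to hold the 3 genes. There were 95 such peaks among 48602 in the whole series and 9846 on 3L, and 15 of the 18 deposited peak lists had at least 1 of them. The interval is 0.694% of the extent of 3L, so by length alone 68.3 peaks would fall in it.

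The 3 genes encode homeodomain transcription factors of the TALE class. In the fly they are known for dividing the body wall and the eye into territories: ara and caup prepattern the notum and the wing veins and act on the proneural genes of the achaete-scute complex, and mirr is known for its part in the dorsal eye and in the follicle cells of the ovary. Their regulatory DNA is known to be spread over long non-coding stretches between the genes and is partly shared among them. In the RefSeq gene table of release 6, used here for names and order only, no gene lies between ara (gene ID 39439) and caup (gene ID 39440), and 4 genes for long non-coding RNAs lie between caup and mirr (gene ID 39441). The protein-coding gene sowah and the gene lncRNA:CR43612 come before ara in that order, and SmD1, a component of the splicing machinery, and Ptp69D, a receptor tyrosine phosphatase, come after mirr. The genes were not placed on release 5 positions, so peaks are given by coordinates and by distance from the left edge of the interval, and no peak is assigned to a gene or to an exon, intron or UTR.

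Chromatin immunoprecipitation with sequencing (ChIP-seq) recovers DNA bound by a protein, and a peak is a stretch called as bound. Of the 18 lists, 10 were made from embryos aged 0 to 12 h of the strain y; bw cn sp with antibodies against 5 histone deacetylases, enzymes that take acetyl groups off histones and other proteins: HDAC1, HDAC3, HDAC4a, HDAC6 and HDAC11, with 2 lists each and 1 input library shared by all 10. CTCF, an insulator protein, had 2 lists from S2 cells, a cell line derived from embryos, which bear the numbers 200 and 500. Caudal, a homeodomain factor of the posterior embryo, had 4 lists: embryos of 0 to 4 h (antibody against Caudal, strain y; bw cn sp), and embryos of 4 to 8 h, L3 larvae and females aged 21 d, all 3 made with goat anti GFP from flies with a cad-GFP construct in y w, VK33. EcR, the receptor of the moulting hormone ecdysone, had lists labelled WPP (white prepupa) with 10 to 11 h and with 30 to 33 h. They were made with goat anti GFP from EcR-GFP flies of the same background. Inputs for the GFP samples came from y; bw cn sp flies without the tag, and no other strain or treatment was involved. The 4 to 8 h and adult female lists of Caudal rest on 1 library each and the other lists pool 2 or 3 libraries, so each list is 1 observation, and the read depth behind a peak is unknown. The animals were taken whole, so binding in few cells and weak binding in many cannot be told apart. The labels do not say whether the lists of 1 target came from separate collections, so differences between them may reflect technical variation alone.

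The 95 peaks were 135 to 6296 bp wide with a median of 1791 bp, and 65 of them came from the 10 HDAC lists. No peak was 10 kb or wider. The number in the interval was above the median of 73 over the 144 windows of equal length along 3L, but 28 of those windows (19.4%) held as many or more, and the fullest held 151. The peaks were unevenly divided among the lists: HDAC6 list 1 had 14, HDAC1 list 2 and HDAC4a list 2 had 13 each, and HDAC11 list 1 and both EcR lists had 0. In all, 8 lists were denser in the interval than on 3L as a whole, and 7 lists covered a larger share of it.

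**Figure D1:**
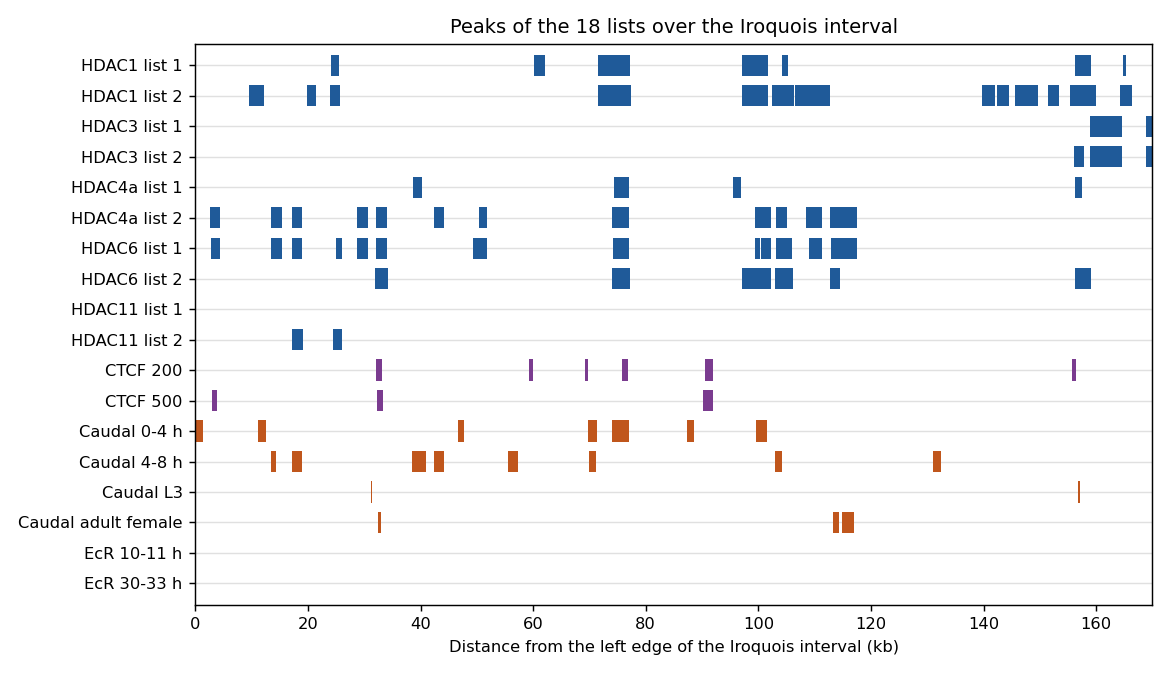
Peaks of each of the 18 lists (rows; HDAC blue, CTCF purple, Caudal orange) drawn to scale along the interval, with the distance from its left edge in kb on the horizontal axis. HDAC4a list 2 and HDAC6 list 1 share most of their peaks to the left of 117.5 kb and have none to the right of it, the HDAC3 lists have peaks only at the right end, and HDAC11 list 1 and both EcR lists are empty.

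HDAC6 list 1 was the list with the highest density relative to the arm among the 10 HDAC lists. HDAC6 is best known as a deacetylase of tubulin in the cytoplasm. Its list 1 had 14 peaks where 3.68 would fall by length, a ratio of 3.80 with an exact 95% interval of 2.09 to 6.32, which covers counting error only. None of the 142 windows of 3L lying apart from the interval held as many. The peaks touched 40 of the 170 bins of 1 kb (23.5%), against 7.65% of all bins on 3L. HDAC6 list 2 had 6 peaks against 4.70 by length, a ratio of 1.28 (0.470 to 2.77), and touched 15.3% of bins against 12.6% on 3L. Of those 6 peaks, 5 overlapped a peak of list 1 (83.3%, against 35.9% on 3L). The base pairs shared by the 2 lists were 0.358 of those covered by either, against 0.202 on 3L. List 1 itself covered 16.6% of the interval against 5.64% of 3L, so neither value on 3L is a like base. With the upper 50% of each list by width, the ratio of list 1 was 2.78 (0.908 to 6.41) on 5 peaks, and its interval reached below 1.

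For HDAC4a, a deacetylase of class IIa, list 2 was denser than the arm and list 1 was close to it. List 2 had 13 peaks against 4.92 by length, a ratio of 2.64 (1.41 to 4.49), and 4 of the 142 windows apart from the interval held as many. It touched 23.5% of the bins, against 9.55% on 3L. With the upper 50% of each list its ratio was 1.75 (0.478 to 4.43) on 4 peaks. List 1 had 4 peaks against 4.11, a ratio of 0.973 (0.265 to 2.48), and touched 6.47% of bins against 7.42% on 3L. Only 1 of the 4 peaks of list 1 overlapped a peak of list 2, which on 3L was 23.8% of list 1.

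HDAC4a list 2 and HDAC6 list 1 nearly coincided. Of the 13 peaks of HDAC4a list 2, 12 overlapped HDAC6 list 1, against 61.9% on 3L, and 13 of the 14 peaks of HDAC6 list 1 overlapped HDAC4a list 2, against 82.1%. HDAC4a list 2 covered 16.3% of the interval against 6.90% of 3L, and HDAC6 list 1 covered 16.6% against 5.64%. The shares on 3L are therefore not a like base. In 6 cases both ends of a peak lay within 150 bp of the ends of its partner. Such cases were not counted on 3L, so this number does not set the interval apart from the arm. The peaks at 3L:12583474-12585385 in HDAC4a list 2 and 3L:12583463-12585372 in HDAC6 list 1 are 1 such case. The widest peak of HDAC4a list 2, 3L:12682767-12687535 with 4769 bp, was matched by 2 peaks of HDAC6 list 1. Together the lists gave 27 of the 95 peaks, and all 27 lay in the left 117.5 kb of the interval. To the right of it HDAC4a list 2 had no peak for 132470 bp, the gap of rank 28 among its 710 on 3L, and HDAC6 list 1 had none for 132528 bp, rank 38 of 532. Both lists share their input with the other HDAC lists, and what the match between lists of different targets rests on was not tested.

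HDAC1, the catalytic subunit of the Sin3 and NuRD corepressor complexes, had many peaks in both of its lists. List 1 had 8 peaks against 4.29 by length, a ratio of 1.86 (0.807 to 3.65), and list 2 had 13 against 6.36, a ratio of 2.04 (1.09 to 3.48). List 1 covered 10.6% of the interval against 8.40% of the arm, and list 2 covered 26.0% against 13.2%. In bins, list 1 touched 14.7% against 10.9% on 3L and list 2 touched 32.4% against 16.6%. List 2 thus covered more of the interval than any other of the 18 lists, and 19 and 10 of the 142 windows held as many peaks as lists 1 and 2 did here. Of the 8 peaks of list 1, 7 overlapped list 2 (87.5%, against 86.9% on 3L), and 6 of the 13 peaks of list 2 overlapped list 1 (46.2%, against 58.1%). With the upper 50% of each list the ratio of list 1 fell below the arm, to 0.930 (0.113 to 3.33) on 2 peaks, and that of list 2 was 1.84 (0.677 to 3.98). With the interval narrowed by 20 kb on each side the ratio of list 2 was 1.85 (0.848 to 3.50). HDAC1 list 2 also had the widest peak of any list here, 3L:12676487-12682782 with 6296 bp, which ranked 82 by width among its 917 peaks on 3L. From 139.7 to 153.5 kb it had 4 peaks that no other list shared, the longest of them 3L:12715648-12719684. The share of its peaks on 3L that no other list overlapped was not computed, so these 4 do not set the interval apart.

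HDAC3, the deacetylase of the SMRTER corepressor complex, had peaks at the right end of the interval and nowhere else in it. List 1 had 2 peaks against 3.43 by length, a ratio of 0.583 (0.0706 to 2.09), and list 2 had 3 against 3.41, a ratio of 0.879 (0.182 to 2.55). Their covered shares lay further from the arm than these ratios: 3.99% against 13.5% for list 1 and 5.08% against 14.7% for list 2. In bins, list 1 touched 5.29% against 15.2% on 3L, and list 2 touched 6.47% against 16.5%. List 1 was empty from 3L:12531837 to 3L:12728924, a run of 197088 bp that ranked 19 among its gaps on 3L, whose median was 11600 bp. List 2 was empty over nearly the same run, 194184 bp, which also ranked 19 among its own gaps. In list 2 the run ended at 3L:12726028-12727758, a peak of 1731 bp with no partner in list 1. The peak that ended the run of list 1, 3L:12728925-12734507 with 5583 bp, lay over the second peak of list 2, 3L:12728936-12734609 with 5674 bp. Both are near the median width of their lists on 3L, 5329 and 6054 bp. A further pair began at 3L:12738810 and 3L:12738777 and ran over the right edge. Because all 5 HDAC3 peaks lie at that edge, narrowing the interval by 20 kb on each side left both lists with 0.

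HDAC11, the class IV deacetylase, had the fewest peaks in the interval of the 5, counting both lists together. Its lists were also the smallest HDAC lists on 3L, with 195 and 289 peaks. List 1 had 0 peaks where 1.35 would fall by length, and on 3L it touched 4.53% of bins. Its nearest peak, 3L:12562924-12569528, ended 472 bp outside the left edge. List 2 had 2 peaks against 2.01, a ratio of 0.998 (0.121 to 3.57), and touched 3.53% of bins against 4.41% on 3L. These were 3L:12587134-12589065 and 3L:12594374-12596101. The first overlapped HDAC4a list 2, HDAC6 list 1 and Caudal at 4 to 8 h, and the second both HDAC1 lists and HDAC6 list 1. The shares of such overlaps on 3L were not computed. With 1.35 and 2.01 peaks by length, a lower density here than on the arm was not detectable for either list.

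**Figure D2:**
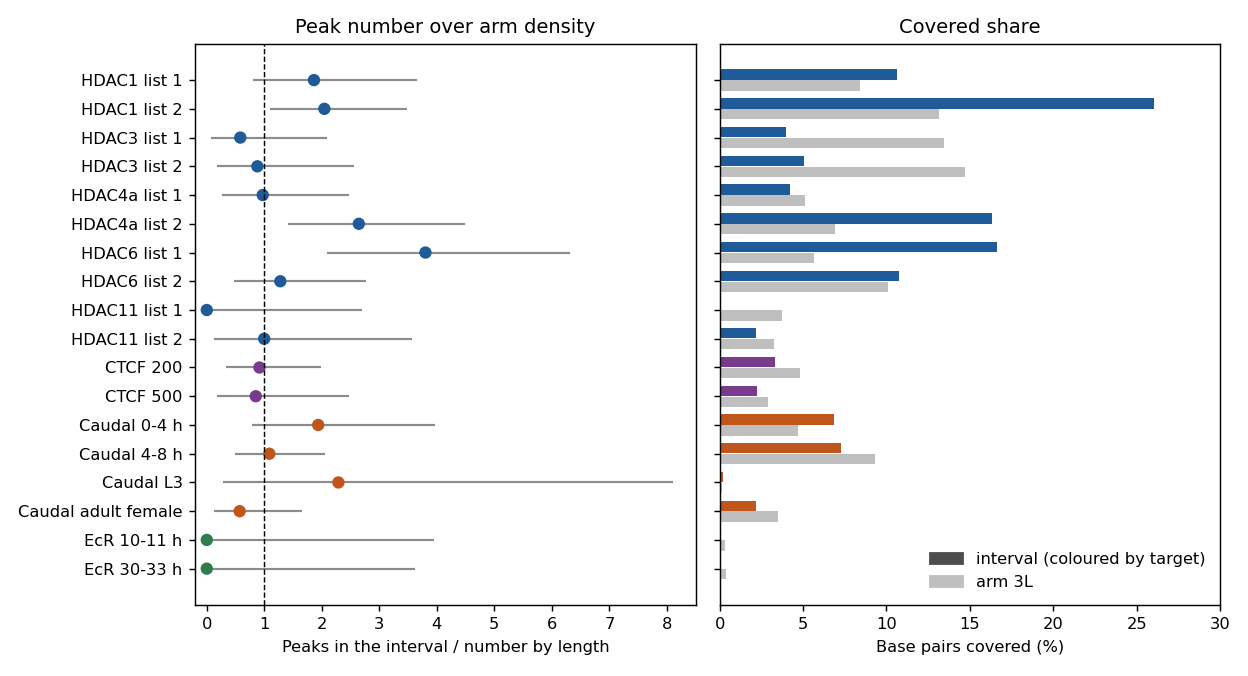
Left, the ratio of the number of peaks in the interval to the number by length at the density of 3L (points, with exact 95% intervals as lines, dashed line at 1); right, the percentage of base pairs covered in the interval (coloured) and on 3L (grey), for each of the 18 lists. HDAC1 list 2, HDAC4a list 2 and HDAC6 list 1 have intervals that lie above 1, and both HDAC3 lists cover 3.99% and 5.08% of the interval against 13.5% and 14.7% of the arm.

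The CTCF lists from S2 cells were close to the arm in number. In the fly, CTCF is among several insulator proteins that take part in dividing chromatin into domains. CTCF 200 had 6 peaks against 6.56 by length, a ratio of 0.915 (0.336 to 1.99), and touched 5.88% of bins against 8.42% on 3L. CTCF 500 had 3 against 3.52, a ratio of 0.851 (0.176 to 2.47), and touched 4.12% against 4.88% on 3L. The lists shared 2 sites, which were 2 of the 6 peaks of CTCF 200 (33.3%) and 2 of the 3 of CTCF 500 (66.7%), and on 3L these shares were 49.8% and 91.9%. At the first shared site CTCF 200 had 3L:12602155-12603118 and CTCF 500 had 3L:12602226-12603277. At the second they had 3L:12660462-12661949 and 3L:12660191-12662013, the widest peak of each list in the interval, and no peak of any HDAC, Caudal or EcR list overlapped it. An HDAC list overlapped 3 of the 6 peaks of CTCF 200, against 73.1% on 3L, and 2 of the 3 of CTCF 500, against 68.5%.

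The 4 Caudal lists had 2 to 9 peaks in the interval. Caudal activates genes of the posterior embryo and, in later stages, of the gut. The lists also differ in antibody, strain, number of libraries and, for L3, in how regions were called, and these cannot be told apart from stage. The 0 to 4 h list had 7 peaks against 3.61 by length, a ratio of 1.94 (0.781 to 3.96), and touched 11.2% of bins against 6.68% on 3L. The 4 to 8 h list had 9 against 8.28, a ratio of 1.09 (0.498 to 2.06), and touched 12.4% against 13.7%. Its ratio was 0.530 with the upper 50% of each list and 0.978 with the interval widened by 20 kb on each side. The L3 list had 2 against 0.874, a ratio of 2.29 with a wide interval of 0.278 to 8.10, and touched 1.77% against 0.604%. The adult female list had 3 against 5.25, a ratio of 0.571 (0.118 to 1.66), and touched 3.53% against 6.32%. The interval of each list spanned 1, so no Caudal list was separated from the arm beyond counting error.

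The overlap between the embryonic Caudal lists was small, as it was along the whole arm. Of the 7 peaks at 0 to 4 h, 1 overlapped a peak at 4 to 8 h (14.3%, against 12.1% on 3L), which was 11.1% of the 9 peaks at 4 to 8 h (5.70% on 3L). The shared site was 3L:12639709-12641274 at 0 to 4 h and 3L:12639973-12641239 at 4 to 8 h. The widest early peak was 3L:12643965-12647023 with 3059 bp, and the widest peak at 4 to 8 h was 3L:12608494-12610892 with 2399 bp. The list of 4 to 8 h embryos also had a peak alone in an otherwise empty stretch, 3L:12700944-12702514. None of the 7 early peaks overlapped an adult female peak, against 29.8% on 3L. The adult female list covered 2.20% of the interval against 3.51% of 3L, so that share is not a like base. The 3 adult female peaks were 3L:12602438-12602896, 3L:12683266-12684320 and 3L:12684810-12687042, the last of 2233 bp and rank 48 by width among 757 on 3L. All 3 overlapped both HDAC6 list 1, against 10.8% on 3L, and HDAC4a list 2, and the last 2 lay under a single peak of HDAC4a list 2. HDAC6 list 1 itself covered 16.6% of the interval against 5.64% of 3L, so its share on 3L is not a like base. An HDAC list overlapped 3 of the 7 peaks at 0 to 4 h, against 73.3% on 3L, and 5 of the 9 at 4 to 8 h, against 60.6%. The 2 L3 regions were short. The first, 3L:12601212-12601346, had the authors' score of 7.09, rank 125 of 126 on 3L, and the second, 3L:12726812-12727046, had 7.27, rank 48.

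Neither EcR list had a peak in the interval. By length 0.923 would fall at 10 to 11 h and 1.01 at 30 to 33 h, with exact upper bounds of 3.94 and 3.62 on the ratio, so a moderate excess would not have been detectable. On 3L these lists touched 0.775% and 0.906% of bins, and 54.2% and 52.8% of windows of the same length were empty of them. The empty runs around the interval were 532265 bp at 10 to 11 h, rank 12 of 134 gaps, and 736665 bp at 30 to 33 h, rank 10 of 146. A gap that holds the empty interval is at least 170001 bp long, and the median gaps were 56880 and 32360 bp. A high rank therefore followed largely from the absence of peaks and is not a separate result.

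Across all lists, a larger share of the interval than of 3L lay under at least 1 list, and a smaller share lay under 4 or more. At least 1 list covered 51.5% of its bases, against 39.0% of the arm, and at least 2 lists covered 30.4% against 26.6%. At 3 or more the shares were 16.8% and 17.3%, at 4 or more 8.09% and 11.0%, and at 8 lists, the most found here, 0.601% and 1.26%. Merging overlapping peaks gave 34 regions. Of these, 16 came from 1 list alone (47.1%, against 43.7% on 3L) and 2 held peaks of at least 8 lists (5.88%, against 10.3% on 3L). Of the 95 peaks, 79 overlapped a peak of another list and 16 did not. No such share was computed over the peaks of 3L, so these counts do not set the interval apart from the arm.

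**Figure D3:**
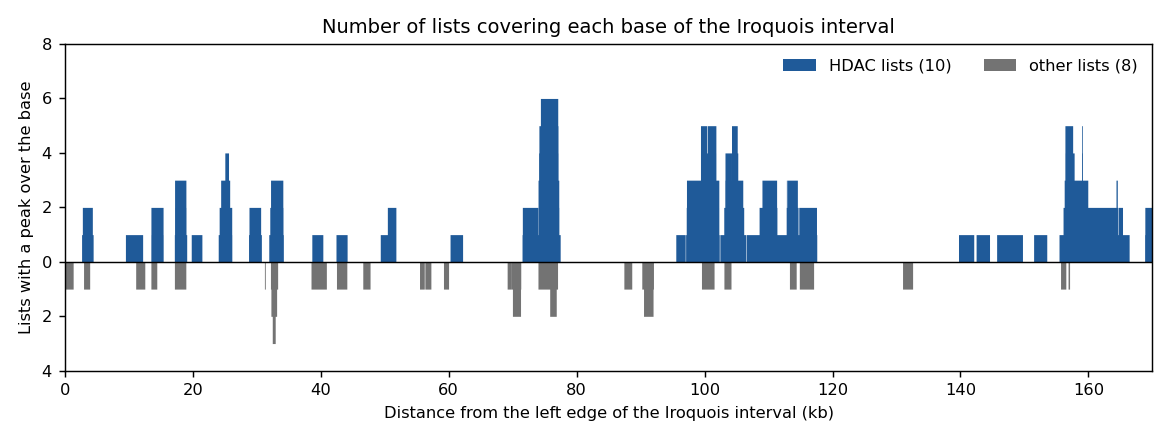
Number of lists with a peak over each base along the interval, HDAC lists (of 10) upward and the CTCF, Caudal and EcR lists (of 8) downward, against the distance from the left edge in kb. The tallest stack, 6 HDAC lists with CTCF 200 and Caudal at 0 to 4 h, stands at 75.8 to 76.8 kb, and the longest bare stretch runs from 117.5 to 130.9 kb.

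The segment covered by the most lists was 3L:12645799-12646820, 1022 bp at 75.8 to 76.8 kb. It lay under peaks of both lists of HDAC1, HDAC4a and HDAC6, of CTCF 200 and of Caudal at 0 to 4 h, and was the only site in the interval that HDAC4a list 1 and list 2 had in common. Here lay the widest peak of HDAC6 list 1 (2984 bp), of HDAC4a list 1 (2710 bp) and of Caudal at 0 to 4 h. The merged region around it spanned 3L:12641474-12647434. Neither HDAC3, HDAC11 nor CTCF 500 had a peak in it.

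Of the next segments, 3 lay under 6 lists each. The longest, 3L:12670457-12671485 (1029 bp), had both lists of HDAC1 and HDAC6, HDAC4a list 2 and Caudal at 0 to 4 h, and the widest peaks of HDAC1 list 1 (4595 bp) and HDAC6 list 2 (5094 bp) covered it. The segment 3L:12602438-12602896 had HDAC4a list 2, both HDAC6 lists, both CTCF lists and Caudal of adult females, and was the only one of the 5 leading segments with both CTCF lists. The segment 3L:12726812-12727046 had both HDAC1 lists, HDAC3 list 2, HDAC4a list 1, HDAC6 list 2 and Caudal of L3 larvae, and lay in a merged region of 10958 bp that held 8 lists in all. The fifth, 3L:12673193-12674130 (938 bp), lay under 5 lists, which were HDAC1 list 2, HDAC4a list 2, both HDAC6 lists and Caudal at 4 to 8 h.

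The left 62.2 kb of the interval held many smaller sites. At 17.1 to 19.1 kb, peaks of 4 lists lay over one another with nearly the same ends: 3L:12587167-12588954 in HDAC4a list 2, 3L:12587171-12588939 in HDAC6 list 1, 3L:12587134-12589065 in HDAC11 list 2 and 3L:12587144-12588928 in Caudal of 4 to 8 h embryos. The other HDAC11 site, at 24.4 to 26.1 kb, was shared with both HDAC1 lists and HDAC6 list 1. At 28.7 to 30.7 kb HDAC4a list 2 and HDAC6 list 1 had a site that none of the other lists overlapped. Caudal at 4 to 8 h overlapped HDAC4a list 2 with 4 of its 9 peaks, against 25.0% on 3L, and 3 of these sites lay in the left 62.2 kb, among them 3L:12612474-12614090 over 3L:12612398-12614135. Caudal at 0 to 4 h overlapped HDAC4a list 2 with 2 of its 7 peaks, against 15.6% on 3L, and both of these lay further right. HDAC4a list 2 itself covered 16.3% of the interval against 6.90% of 3L, so these shares on 3L are not a like base.

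Bare stretches, those with no peak of any list, made up 48.5% of the interval against 61.0% of 3L. The longest with no peak of any list was 3L:12687536-12700943, 13408 bp, which ranked 249 among the 2715 bare stretches of 3L with a median of 2263 bp. The next were 3L:12647435-12657389 (9955 bp), 3L:12702515-12709687 (7173 bp) and 3L:12632184-12639147 (6964 bp). Left of the first of these stretches in map order, from 0 to 62.2 kb, lay 38 peaks of 13 lists. From 69.1 to 77.4 kb there were 12 peaks of 9 lists, and from 87.4 to 117.5 kb 27 peaks of 11 lists. Between 130.9 and 132.5 kb stood the single Caudal peak of 4 to 8 h embryos. From 139.7 kb to the right edge lay 17 peaks of 8 lists, of which 6 were of HDAC1 list 2 and 5 of the HDAC3 lists, with none of HDAC4a list 2 or HDAC6 list 1.

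Whether the 2 lists of an HDAC target resembled each other more than lists of different targets was asked with the Jaccard index, the shared base pairs divided by all base pairs covered by either list inside the interval. The index averaged 0.315 over the 5 same-target pairs and 0.0913 over the 40 different-target pairs, a difference of 0.223. In an exact one-sided permutation test over all 945 ways of dividing 10 lists into pairs, 16 gave a difference as high, with p = 0.0169. The HDAC3 pair (0.783) carried much of it. Without HDAC3 list 1 the difference was 0.0844 (permutation p = 0.121), and without HDAC3 list 2 it was 0.0919 (permutation p = 0.114). Without HDAC1 list 2 the difference was 0.218, close to that of all lists, with a permutation p of 0.0582. Leaving out a list also leaves fewer same-target pairs for the test. The HDAC6 pair had an index of 0.358 (0.202 on 3L), the HDAC1 pair 0.348 (0.452), the HDAC4a pair 0.0841 (0.102) and the HDAC11 pair 0 (0.0735). The HDAC3 pair had 0.816 on 3L. The test was not run on 3L, so it does not show a likeness particular to the interval. The highest index of all 45 pairs was between different targets, 0.794 for HDAC4a list 2 and HDAC6 list 1. On 3L that pair had 0.529 and ranked behind the HDAC3 pair (0.816) and the pair of HDAC1 list 1 with HDAC6 list 2 (0.536), which had 0.468 in the interval. HDAC4a list 2 and HDAC6 list 1 each covered a larger share of the interval than of 3L, so 0.529 is not a like base. With the interval narrowed by 20 kb on each side the permutation p was 0.0603, and with the upper 50% of each list by width it was 0.124.

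**Figure D4:**
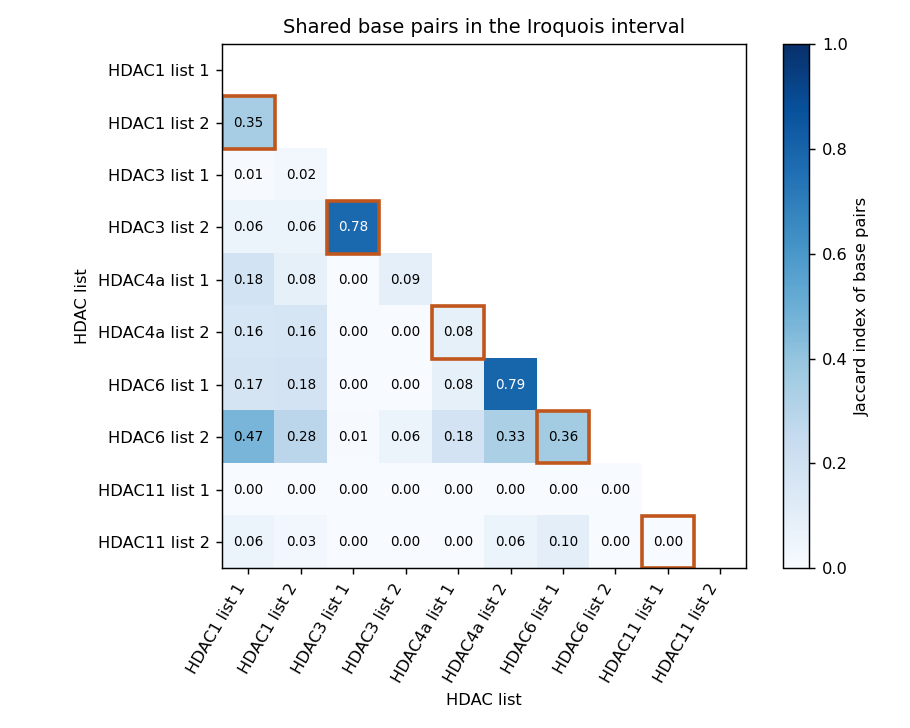
Jaccard index of base pairs in the interval for each pair of the 10 HDAC lists, from 0 (white) to 1 (dark blue), with the 5 same-target pairs framed in orange. The pair of HDAC3 lists (0.783) and the pair of HDAC4a list 2 with HDAC6 list 1 (0.794) are the darkest cells, and the framed cells of HDAC4a (0.0841) and HDAC11 (0) are light.

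Beyond the edges, 9 peaks of 8 lists lay within 10 kb to the left of the interval and 8 peaks of 5 lists within 10 kb to the right. On the left, HDAC4a list 2 and HDAC6 lists 1 and 2 had peaks that began between 3L:12562992 and 3L:12563166. On the right, both lists of HDAC1 and of HDAC3 and HDAC6 list 2 had peaks, the widest of them 3L:12743698-12763579 in HDAC3 list 2 with 19882 bp. No HDAC3 peak lay within 10 kb of the left edge, and HDAC3 peaks continued directly beyond the right edge.

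For comparison, 2 other loci of developmental regulators were set beside the interval without a test. The first, 3R:12500000-12800000, was taken as the segment of the Bithorax complex of homeotic genes. HDAC4a list 2 had 55 peaks there (ratio 5.11) and HDAC6 list 1 had 49 (5.96), HDAC3 had 1 and 0 peaks, and both EcR lists had 0. Caudal at 0 to 4 h was the densest list there with 58 peaks, a ratio of 9.22 against 1.94 in the Iroquois interval. Unlike in the Iroquois interval, CTCF 200 (36 peaks, ratio 3.13 against 0.915), CTCF 500 (3.69 against 0.851) and HDAC4a list 1 (2.42 against 0.973) were also dense. On 3L:17900000-18100000, taken as the segment of the ecdysone-induced gene Eip75B, the order was another: EcR had 26 and 29 peaks, with ratios of 24.0 and 24.5, HDAC6 list 1 had 2 (0.462) and HDAC4a list 2 had 6 (1.04). Among the 142 other windows of 3L, the profile of peaks over the 18 lists was most like that of the Iroquois interval at 3L:12261393-12431393 (Pearson's r = 0.624 over 18 lists, 84 peaks), 3L:21441447-21611447 (r = 0.620, 151 peaks) and 3L:5971356-6141356 (r = 0.587, 95 peaks). The windows share their lists and libraries, and these values are a description.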

How the data were processed

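The series held 34 samples, 18 ChIP samples with 1 list of peaks each and 16 inputs, sequenced as 36 bp reads per the series record. Peak positions are on BDGP5, per the submitters' processing notes; the sources used here name no aligner, peak caller or settings. According to the sample titles, 1 to 3 libraries were pooled by the authors for each list. In 15 lists a peak had no value of its own. In both EcR lists and Caudal L3, the authors deposited a score per region, and per the file headers these lists come from a density track with count thresholds of 310.4 (EcR at 30 to 33 h), 169.4 (EcR at 10 to 11 h) and 133.8 (Caudal L3), where both the largest gap and the shortest run were 100 bp. No source gives the scale of that score, and it served only as the authors' value and rank within a list. For Caudal L3, the track is named after EcR in the header, against its labels, which were followed.

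A peak belonged to the interval when it overlapped it by 1 bp or more. The number by length is the count of a list on 3L times the share of the interval in the extent of 3L (24509343 bp over all lists), with exact Clopper-Pearson 95% intervals for counting error. Covered shares, the share of 1 kb bins touched by a peak and the counts in 144 windows of equal length were set beside the same on 3L. Lists were grouped by target, stage and cell line from the labels. The lists of HDACs were compared by an exact permutation test with a threshold of 0.05. Its code was run on simulated lists of equal cover and independent positions. The lists here differ in cover and hold contiguous peaks, so that run does not show how the test behaves on them. Profiles of windows were compared by Pearson's r of log2((peaks + 1)/(number by length + 1)). Named regions were the widest of each list, the 5 segments under the most lists, the longest bare stretches, the scored regions and the 3 windows most like the interval; peaks named beside them illustrate a count and were chosen after their values were seen. Alternatives were midpoints, the interval widened or narrowed by 20 kb, the upper 50% of each list, other bases of density and leaving out lists. The interval, the compared loci and the tests were chosen with earlier results of these data known. Python 3.11.15, numpy 2.4.6, pandas 2.3.3, scipy 1.17.1 and matplotlib 3.10.9 were used.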

Additional observations from a re-analysis of the deposited data

How the results depend on the processing

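With the upper 50% of each list (by width, or by score where there is one), 33 peaks in place of 95 lay in the interval and 4 lists in place of 7 covered a larger share of it than of 3L. The excess of the same-target over the different-target Jaccard index of the HDAC lists, 0.223, was 0.102 with the interval narrowed by 20 kb on each side and 0.0609 with the upper 50% of each list, and no longer passed the threshold; the cause was not tested. Leaving out 1 list at a time, it ranged from 0.0844 to 0.305. Without HDAC6 list 1 and HDAC4a list 2 together, a choice made after seeing the data, it was 0.313 (exact permutation p = 0.031). The number of lists with a peak ranged from 13 to 16 over these alternatives, and leaving out 1 list gave 81 to 95 peaks, with 81 also the count without HDAC6 list 1. Of 108 ratios of a list to the arm recomputed under alternatives, 104 stayed within the interval of the reported value and 4 did not, namely both HDAC3 lists with the narrowed interval and HDAC3 list 2 and HDAC11 list 2 with the upper 50%, all of which fell to 0. Direction against the arm turned for HDAC1 list 1 (0.930 with the upper 50%), Caudal at 4 to 8 h (0.530 with the upper 50%, 0.978 with the widened interval) and HDAC4a list 1 (1.05 with all arms as the base), and with the upper 50% no list of HDAC1, HDAC4a or HDAC6 kept an interval above 1. With the widened interval the ratio of HDAC1 list 1 was 2.07 (1.04 to 3.69), above 1. Lists with few peaks, such as those of EcR and Caudal L3, can show only large excesses, and lists without peak heights give no measure of binding strength. No paired analysis was possible because the lists carry no number that ties a list of 1 target to a list of another, and numbered libraries were pooled before deposit.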
